A study of Mus musculus with 2 samples.

Results

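Csmd1, Csmd3 and Lrp1b are among the longest genes of the mouse genome, and cytosine methylation was read along them in adult dentate gyrus. The tissue, a part of the hippocampus rich in granule neurons, was micro-dissected whole from male C57Black6 mice aged 8 to 10 weeks, so each level is an average over its neurons, glia and other cells. Untreated wild-type tissue was the only group, with 2 libraries, and no treatment or mutation was compared. The genes were taken as 3 windows of mm9, the mouse genome build of the tables: Csmd1 at chr8:15890000-17540000, Csmd3 at chr15:47410000-48630000 and Lrp1b at chr2:40450000-42510000. Each window was defined by these coordinates and was read in replicate 2, at cytosines covered by at most 100 reads. The windows held 74471 such cytosines out of 27435342 listed in that library, with 20232 in Csmd1, 20350 in Csmd3 and 33889 in Lrp1b.

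Bisulfite sequencing reads a methylated cytosine as C and an unmethylated one as T, and it does not tell methylcytosine from hydroxymethylcytosine. Mammalian methylation lies mostly at CpG. Neurons also carry methylation at other cytosines, together called CpH. These are split into CHG and CHH, with H standing for any base but G. In the mouse brain this mark is laid down after birth by the methyltransferase Dnmt3a and favours CAC. The genes themselves code for very large membrane proteins. Csmd1 and Csmd3 encode chains of CUB and sushi domains, and CSMD1 is known as an inhibitor of complement, the protein cascade that also tags synapses for removal. Lrp1b encodes a receptor of the LDL receptor family, which takes up ligands by endocytosis. All 3 genes are transcribed from the minus strand in the mouse reference, so their starts lie at the high-coordinate end of each window.

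A short stretch of the Lrp1b window shows what a listed cytosine is. It is the plus strand over the hairpin of Mir6336, a microRNA that RefSeq (GRCm38.p6) annotates inside Lrp1b, and it is shown because it is a RefSeq sequence inside a window whose cytosines could be placed. The stretch was placed at chr2:42302958-42303087 of mm9 by its pattern of cytosine contexts: all 9 cytosines listed there fell on a C of the right context, while the next best placement in the window matched 5. Capitals mark the listed cytosines, 5′ to 3′.
Mir6336 stretch, plus strand: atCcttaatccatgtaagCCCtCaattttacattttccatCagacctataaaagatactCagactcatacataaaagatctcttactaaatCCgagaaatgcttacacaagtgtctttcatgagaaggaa
The last capital is the stretch's CpG, read as methylated in 23 of 23 reads. The cytosine directly before it, a CHG site, was methylated in 0 of 23 reads, which allows a level of up to 13.0% (3 reads of the total, the limit used here for each count of 0). The 3 CHG sites together had 0 of 68 reads methylated, which allows up to 4.41%, and the 5 CHH sites had 1 of 152. Such limits, and all intervals given here, cover counting error alone: the libraries carried no molecular identifiers, and PCR copies of a molecule are not independent.

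Depth was alike across the windows. The median was 23 to 24 reads per CpG and CHG site and 32 per CHH site in the windows, against 22 to 24 and 32 in the single flanks. Listed density differed. The Csmd1, Csmd3 and Lrp1b windows held 107, 121 and 121 CpG sites per 100 kb, against 127, 93.9 and 97.3 in their 1 Mb flanks. For CHH the densities were 270, 546 and 527 per 100 kb, against 253, 440 and 380. The CHH table starts at 30 reads and the other tables at 20, so CHG and CHH levels come from sites of different depth.

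CpG methylation was high in all 3 genes and lowest in Csmd1. The Csmd1 level was 76.6% of reads (exact 95% interval 76.2% to 77.0%, 1770 sites), the Csmd3 level 81.4% (81.0% to 81.8%, 1477 sites) and the Lrp1b level 82.3% (82.0% to 82.6%, 2495 sites). The 3 intervals did not overlap. The median of 2408 autosomal bins of 1 Mb was 79.5%, so Csmd1 lay below it and Csmd3 and Lrp1b above it. In rank, 23.2% of the bins were lower than Csmd1, 74.7% were lower than Csmd3 and 85.2% were lower than Lrp1b. All 3 lay within the middle 90% of bins, which ran between 72.6% and 83.4%. These ranks depended on depth: at sites of at least 30 reads the CpG percentile, among 1259 bins, was 4.53 in Csmd1, 77.8 in Csmd3 and 55.0 in Lrp1b.

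Over all sites of at most 100 reads, CHG and CHH methylation in the 3 genes lay under the autosomal median and above the mitochondrial CpH rate. At mitochondrial CpH sites 0.368% of reads were methylated (95% interval 0.365% to 0.370%), and this rate was used as the background of failed conversion. The CHG level was 0.608% in Csmd1 (0.582% to 0.635%), 0.693% in Csmd3 (0.664% to 0.723%) and 0.684% in Lrp1b (0.662% to 0.707%), against an autosomal median of 0.759% over 2405 bins. The CHH level was 0.701% in Csmd1 (0.659% to 0.745%), 0.781% in Csmd3 (0.745% to 0.819%) and 0.716% in Lrp1b (0.689% to 0.744%), against a median of 0.895% over 2403 bins. For CHG, the Csmd1 interval lay below those of the other 2 genes, which overlapped. For CHH, the intervals of Csmd1 and Lrp1b overlapped. That of Csmd3 started at 0.744975%, just above their ends of 0.744582% and 0.744086%. The Csmd3 level counts a site with 25 of 33 reads methylated (position 48124281), and the level without that site was not computed. For CHH the place of Csmd3 above the others is thus not secure. By rank among bins, the windows stood at percentiles 13.6, 31.0 and 28.7 for CHG, in the order Csmd1, Csmd3, Lrp1b. For CHH they stood at 17.3 in Csmd1, 30 in Csmd3 and 19.3 in Lrp1b. At sites of at least 30 reads, the CHG levels of Csmd1 and Csmd3 were 0.660% and 0.790%. Only 388 bins had enough such sites, and among them the CHG percentiles were 26.0 in Csmd1, 61.9 in Csmd3 and 37.6 in Lrp1b. At CHH sites of at least 40 reads, Csmd3 stood at percentile 46.7 and Lrp1b at 64.8 among 122 bins, so Csmd3 CHG and Lrp1b CHH went above the median of deeper sites. Set against the mitochondrial rate, the CHG levels were 1.65, 1.89 and 1.86 times as high and the CHH levels 1.91, 2.13 and 1.95 times as high, in the same order.

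**Figure D1:**
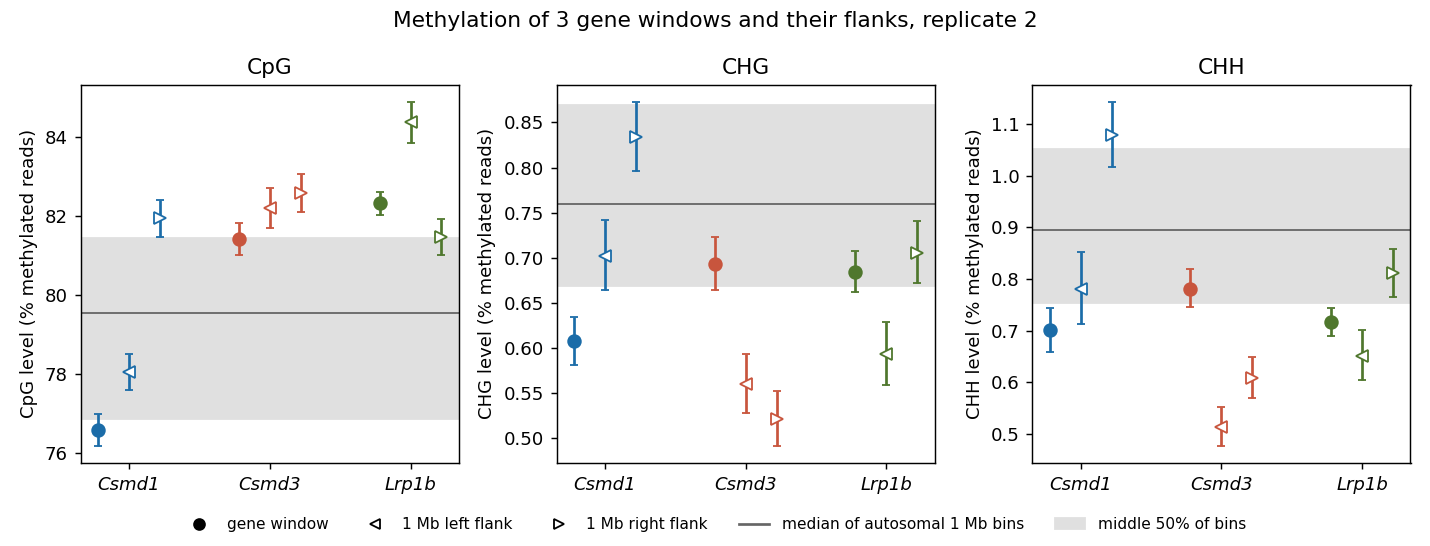
Level of methylated reads (%) in each gene window (filled circle) and its left and right 1 Mb flank (open triangles) for CpG, CHG and CHH, with exact 95% intervals, and the median and middle 50% of autosomal 1 Mb bins (line and grey band); the axes do not start at 0. Csmd1 lies under both flanks in each context, and Csmd3 lies above both flanks for CHG (0.693%) and CHH (0.781%).

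Each window was then set against the 1 Mb on either side of it, to see whether its level differed from the pooled level of these flanks. Csmd1 was lower than its flanks in every context, Csmd3 was higher than its flanks in CHG and CHH, and Lrp1b lay between its flanks. The test was Fisher's exact test on summed reads, run also for every autosomal 1 Mb bin against its neighbours, with Benjamini-Hochberg adjustment over all of them. It compares loci within 1 library and takes reads as independent. It called 79.4% of bins and windows for CpG (38.2% lower and 41.2% higher than their flanks), 66.8% for CHG (35.6% lower, 31.2% higher) and 63.2% for CHH (33.2% lower, 30.1% higher), so a call by it is common. A quasi-binomial F test takes its spread from the 100 kb steps, and treats these neighbouring steps of 1 library as independent. That test called 0.592% for CpG (0.465% lower, 0.127% higher), 6.44% for CHG (2.88% lower, 3.56% higher) and 4.12% for CHH (1.53% lower, 2.59% higher). Both results are given below for that reason.

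In Csmd1 the CHG level was 0.608%, against 0.775% in its flanks, a difference of -0.167 points (95% interval -0.205 to -0.130). It was called by Fisher's exact test (adjusted p = 5.93e-17) and by the quasi-binomial test (adjusted p = 0.00827), which called 2.88% of bins and windows as lower than their flanks. The CHH level was 0.701%, against 0.968% in the flanks, a difference of -0.267 points (-0.331 to -0.203). Fisher's exact test gave an adjusted p of 2.41e-15 and the quasi-binomial test 0.0254, and the quasi-binomial test called 1.53% of bins and windows as lower. The CpG level was 76.6%, against 79.8% in the flanks, a difference of -3.22 points (-3.74 to -2.71) that Fisher's exact test called (adjusted p = 3.55e-34) and the quasi-binomial test did not (adjusted p = 0.417). Its direction held but its size depended on the flanks. It was -1.47 points against the left flank alone, -5.35 against the right and -1.62 against 2 Mb flanks. With no highest depth it was -1.65 points, as this added 10 CpG sites of the left flank with a level of 15.7%. Over the alternatives tried, Csmd1 was lower in 12 of 12 for CHG, with adjusted p between 8.46e-22 and 0.00827, and in 12 of 12 for CHH, with adjusted p between 1.81e-22 and 0.0785.

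The flanks of Csmd1 were not alike. The CHH level of the window was 0.701%, against 0.780% in its left flank and 1.08% in its right flank, and against the left flank alone it did not pass (Fisher's exact test, adjusted p = 0.0785). For CHG the window was at 0.608%, against 0.703% in the left flank and 0.834% in the right. In size these differences were not unusual, since 21.7% of autosomal bins differed from their neighbours by at least as much for CHG and 21.5% for CHH.

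In Csmd3 the direction was the opposite. The CHG level was 0.693%, against 0.540% in the flanks, a difference of 0.153 points (0.116 to 0.1898) or 1.28 times. Fisher's exact test called it (adjusted p = 1.58e-15), as did the quasi-binomial test (adjusted p = 0.00119), which called 3.56% of bins and windows as higher. The CHH level was 0.781%, against 0.563% in the flanks, a difference of 0.218 points (0.172 to 0.263) or 1.39 times. Here the adjusted p was 2.65e-20 by Fisher's exact test and 0.0199 by the quasi-binomial test, which called 2.59% as higher. Both contexts stayed higher and past the threshold in 12 of 12 alternatives, with adjusted p between 7.41e-16 and 0.00119 for CHG and between 3.79e-21 and 0.0199 for CHH. The alternatives that could not change the difference in Csmd1 could not change it here either. Lifting the highest depth could not do so, as no site of this window or its flanks had more than 100 reads. In size they were not unusual, since 25.5% of autosomal bins differed from their neighbours by at least as much for CHG and 29.2% for CHH.

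The level of Csmd3 itself was below the autosomal median, and its flanks were lower still. The window's CHG level of 0.693% stood against 0.560% in the left flank and 0.522% in the right, and only 8.23% and 5.86% of autosomal bins were lower than these flanks. For CHH the window's 0.781% stood against 0.514% on the left and 0.609% on the right, at percentiles 4.87 and 8.99. CpG went the other way by little: the window was at 81.4%, against 82.4% in the flanks, a difference of -0.980 points (-1.51 to -0.449). Fisher's exact test called it (adjusted p = 0.000423) and the quasi-binomial test did not (adjusted p = 0.806). Without 100 kb at each end of the window it was -0.244 points and not called (Fisher's exact test, adjusted p = 0.434), and at sites of at least 30 reads it reversed to 2.45 points (adjusted p = 0.000489).

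Against its 1 Mb flanks Lrp1b did not pass the threshold in any context, but it did against other flanks. Its CHG level was 0.684%, against 0.656% in the flanks, with an interval of the difference of -0.00506 to 0.0617 points (Fisher's exact test, adjusted p = 0.133). For CHH it was 0.716%, against 0.741%, with an interval of -0.0687 to 0.0179 points (Fisher's exact test, adjusted p = 0.317). For CpG it was 82.3%, against 82.6%, with an interval of -0.779 to 0.132 points (Fisher's exact test, adjusted p = 0.192). The quasi-binomial adjusted p was 0.673 for CHG, 0.842 for CHH and 0.920 for CpG. By Fisher's exact test, CHH differed from 500 kb flanks by -0.0963 points (adjusted p = 0.00147) and from 2 Mb flanks by -0.0722 points (adjusted p = 0.000347), and CpG differed from 2 Mb flanks by 1.58 points (adjusted p = 1.06e-15). Of the alternatives tried, 1 of 12 called CHG, 4 of 12 called CHH and 4 of 11 called CpG, and the calls of CHH and CpG were not all in 1 direction. Its flanks differed in opposite ways. The window's CHG level was higher than the 0.593% of the left flank and lower than the 0.706% of the right flank. Its CpG level was lower than the 84.4% of the left flank, a level above 98.9% of autosomal bins, and higher than the 81.5% of the right flank.

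Steps of 100 kb show how even these levels were inside each gene. In Csmd1, 17 of 17 steps lay below the flank level in CHG and in CHH, and 16 and 15 of them lay below the autosomal medians of 100 kb bins, 0.734% and 0.833%. Lying below the flank level was not particular to the window. The left-flank steps from 15490000 up to the window did so too, at 0.562% to 0.668% in CHG and 0.519% to 0.786% in CHH. The right-flank step next to the window lay above that level, at 1.08% in CHG and 1.44% in CHH. The CHG steps of the window ran between 0.448% (16090000 to 16189999 of chromosome 8) and 0.740% (16390000 to 16489999), with an SD of 0.0823 points, 1.46 times what counting error gives. The CHH steps ran between 0.420% (17490000 to 17540000, the shortened last step) and 0.850% (16590000 to 16689999), with an SD 1.36 times that of counting error. CpH methylation along Csmd1 thus varied little beyond counting error. In CpG it was less even, with an SD of 3.92 points, 4.50 times that of counting error. The highest CpG step was 82.0% (16590000 to 16689999) and the lowest full step 69.1% (16890000 to 16989999), and 14 of 17 steps lay below the autosomal 100 kb median of 80.2%.

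In Csmd3, 12 of 13 steps were above the flank level in CHG and 13 of 13 in CHH. Among full steps, CHG ran between 0.532% (47510000 to 47609999 of chromosome 15) and 0.793% (48110000 to 48209999), and CHH between 0.564% (47410000 to 47509999) and 1.03% (48110000 to 48209999). The step at 48110000 was the highest full step in both contexts, but its rank rested on single cytosines. Without the site at 48129251 its CHG level was 0.731%, with 3 full steps higher, and without the site at 48124281 its CHH level was 0.904%, with 1 full step higher. CHG and CHH were lowest and CpG highest at the low-coordinate end, the 3′ end of the gene. Split into equal parts of the window, CHG was 0.616% (0.569% to 0.666%) at the low-coordinate end, 0.746% (0.694% to 0.80%) in the middle and 0.721% (0.668% to 0.777%) at the high-coordinate end. CHH was 0.709% (0.653% to 0.768%), 0.812% (0.748% to 0.881%) and 0.841% (0.772% to 0.914%) in that order. Without its last 20 kb, the part at the high-coordinate end was at 0.707% CHG (0.652% to 0.764%) and 0.782% CHH (0.714% to 0.855%). Both intervals then overlapped those of the low-coordinate end. For CpG the same parts were at 84.7%, 80.3% and 78.8%, and without its last 20 kb the part at the high-coordinate end was at 81.4% (80.6% to 82.1%). CpG steps were highest at 47710000 to 47809999, with 86.3%.

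In Lrp1b the steps were spread about the flank level, with 10 of 21 below it in CHG and 13 of 21 in CHH. The step at 41850000 to 41949999 of chromosome 2 was the highest for CHG, at 0.959% (0.828% to 1.10%), and for CHH, at 1.03% (0.840% to 1.253%). Without the CHH site at 41947311 its CHH level was 0.8796% (0.703% to 1.09%), with 2 steps higher, so 1 cytosine set the CHH rank. With that site included, of autosomal 100 kb bins, 80.6% and 70.1% were lower. The lowest CHG step was 0.519% (40650000 to 40749999) and the lowest CHH step 0.505% (40750000 to 40849999), next to each other near the 3′ end. The CHG SD over steps was 1.97 times that of counting error, and the CHH SD 2.19 times. CpG ran between 86.3% (41650000 to 41749999) and 77.0% (41250000 to 41349999) among full steps.

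**Figure D2:**
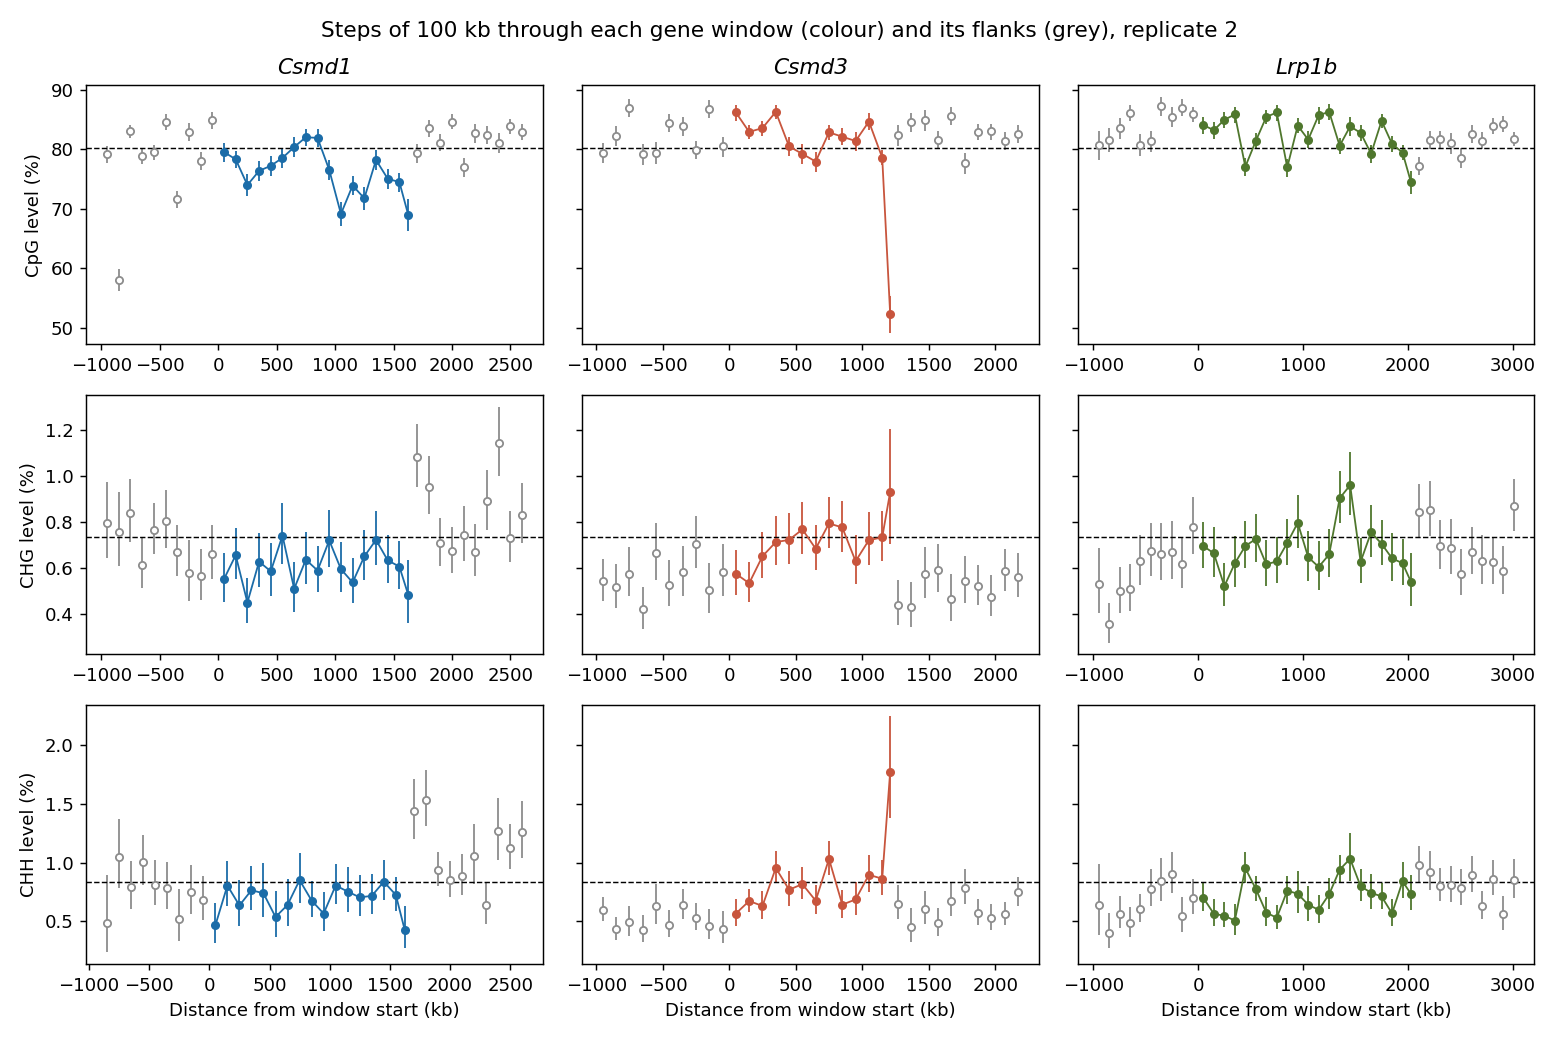
Level (%) of CpG, CHG and CHH in steps of 100 kb along each gene window (coloured, joined) and its 1 Mb flanks (grey), against the distance from the window's start (kb), with exact 95% intervals and the autosomal 100 kb median (dashed line); the axes do not start at 0, and the last step of each window is shorter. Csmd1 stays under the dashed line in 16 of 17 CHG steps, and the last Csmd3 step has 52.2% CpG methylation.

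The lowest CpG level of each gene was in its last, shortened step, at the end that holds the gene's start: 69.0% in Csmd1, 52.2% in Csmd3 and 74.5% in Lrp1b. In Csmd1 this step (66.3% to 71.7%) did not separate from the inner step at 16890000, at 69.1% (67.2% to 71.1%). To compare equal lengths, the first and last 20 kb of each window were read, a choice made after the steps were seen. In Csmd3 the last 20 kb had a CpG level of 52.2% (49.2% to 55.3%, 44 sites), with 2.17% of autosomal 20 kb bins lower still, against 83.3% in its first 20 kb. In Csmd1 the last 20 kb was at 59.8% (54.4% to 65.1%, 15 sites), against 85.1% in the first. In Lrp1b the ends did not separate in that way, with 77.3% (74.6% to 79.8%) in the last 20 kb and 81.0% (77.5% to 84.1%) in the first, whereas the 20 kb just past the window's last base was at 66.2% (63.1% to 69.2%).

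In Csmd3 the same end had a high CHH level. Its last 20 kb had a CHH level of 1.78% (1.38% to 2.25%, 115 sites), above 90.9% of autosomal 20 kb bins, and a CHG level of 0.930% (0.705% to 1.20%). For CHG a 50 kb step elsewhere in the gene was higher, at 0.953%. One CHH cytosine weighed on it, as the CHH level without position 48626545 was 1.34% (1.001% to 1.76%). Just past that end, levels were low, at 0.381% for CHG (0.208% to 0.638%) and 0.291% for CHH (0.0794% to 0.744%). Csmd1 did not share this, with 0.445% CHG and 0.584% CHH in its last 20 kb, and 1.03% and 1.53% in the 20 kb past it.

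Short stretches of low CpG methylation, such as those at active promoters, were counted in bins. A 1 kb bin was called low where at least 5 CpG sites were listed and their level was under 20%. Csmd3 had 1 of 38 such bins low, Csmd1 2 of 37 and Lrp1b 0 of 48, against 5.06% of autosomal bins. With so few bins, these counts do not separate the genes from the autosomes. The Csmd3 bin, at 48621000 to 48621999 of chromosome 15 and 9 kb from the window's end, had 0 of 176 reads methylated over 8 CpG sites, which allows up to 1.70% by 3 reads of the total (the exact interval ends at 2.07%), and 0 of 219 reads at its 10 CHG sites. In Csmd1 the low bins lay inside the gene. That at 16115000 to 16115999 of chromosome 8 had 8 of 138 reads methylated (5.80%, 2.54% to 11.1%), and that at 16955000 to 16955999 had 20 of 113 (17.7%, 11.2% to 26.0%).

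By single site, the lower CpG level of Csmd1 came with more sites of intermediate methylation. Sites methylated in 20% to under 80% of reads made up 33.3% of its CpG sites (31.1% to 35.6%), against 28.8% in its flanks (27.0% to 30.6%) and 28.3% over all autosomes. They made up 28.9% in Csmd3, against 31.6% in its flanks, and 27.0% in Lrp1b, against 27.5%. Sites under 20% were 4.86% of Csmd1, against 3.89% of its flanks. They were 2.78% of Csmd3 (1.999% to 3.75%), against 0.693% of its flanks (0.369% to 1.18%), and 17 of the 41 in Csmd3 lay in its last 20 kb. In Lrp1b they were 2.20%, against 1.85% in its flanks.

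**Figure D3:**
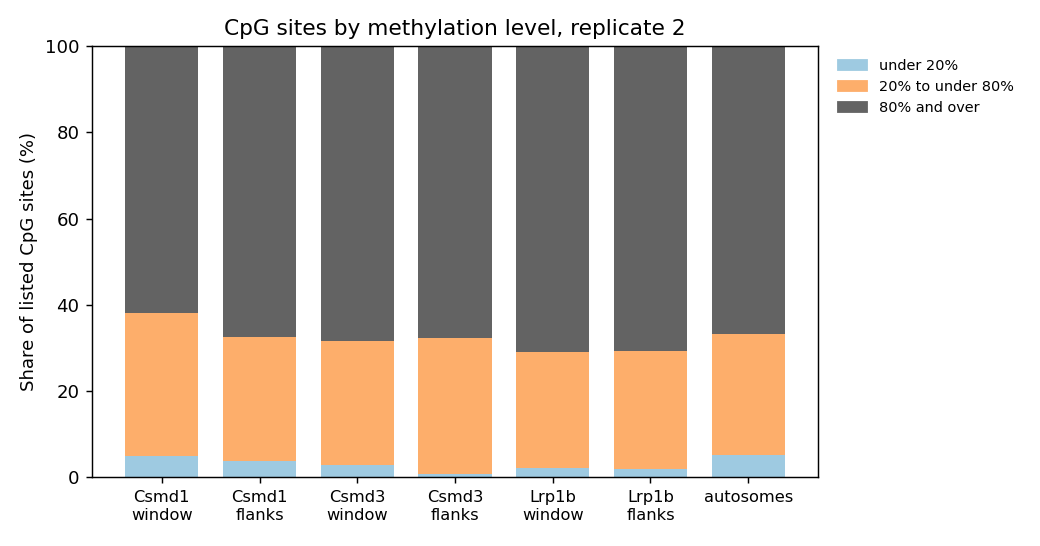
Share of listed CpG sites (%) by methylation level in each gene window, its flanks and all autosomes, as stacked bars that add to 100%. The Csmd1 window has the largest share of sites at 20% to under 80% (33.3%), and all regions have most sites at 80% and over.

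CpH levels in the 3 genes differed with the neighbouring bases, as they did over all autosomes. With no genome sequence of the build, neighbours were read from the tables: a base is known to be a cytosine where it is itself listed. CHH sites whose next base was a listed cytosine (CC) were at 0.314% in Csmd1, 0.345% in Csmd3 and 0.333% in Lrp1b, against 0.355% over all autosomes. Each of these gene intervals included the mitochondrial rate of 0.368%. The autosomal interval, 0.354% to 0.357%, lay below it, so that rate is not an exact floor for the autosomes. CHH sites whose next base was not listed but whose base after that was, written C.C below and the class that holds CAC and CTC, were the most methylated. They were at 1.60% in Csmd1 (1.45% to 1.76%), 1.80% in Csmd3 (1.65% to 1.95%) and 1.58% in Lrp1b (1.48% to 1.70%), against 2.06% over all autosomes. The remaining CHH sites were at 0.572%, 0.681% and 0.639%, against 0.767%. An unlisted base can be a cytosine below the depth minimum, so these classes are not pure.

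CHG showed the same contrast. Sites directly before a listed CpG (CCG) were at 0.383% in Csmd1 (0.262% to 0.540%), 0.346% in Csmd3 (0.214% to 0.528%) and 0.471% in Lrp1b (0.349% to 0.622%), against 0.432% over all autosomes. They were few, 353, 248 and 423 sites. The other CHG sites, CAG and CTG among them, were at 0.614%, 0.7003% and 0.689%, against 0.795%. In these and in the CHH classes without a listed next base, each gene was below the autosomes, at 0.745 to 0.887 times their level.

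The differences from the flanks were seen in the more methylated classes. For C.C sites, Csmd1 was at 1.60%, against 2.27% in its flanks (2.10% to 2.44%), and Csmd3 was at 1.80%, against 1.07% (0.975% to 1.18%). For CHH sites with a listed next base the values were 0.314% in Csmd1, against 0.354% in its flanks, and 0.345% in Csmd3, against 0.350%, with overlapping intervals. When levels were standardised to the autosomal mix of classes, each gene and context kept its direction and its side of the threshold.

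**Figure D4:**
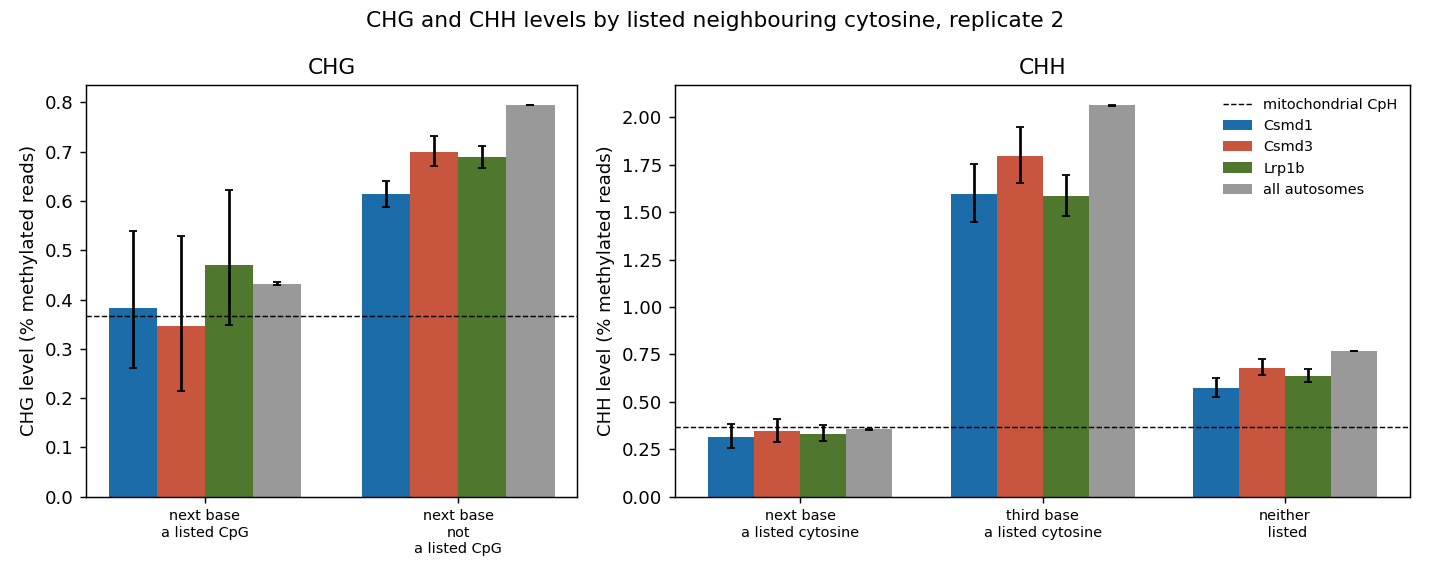
CHG and CHH levels (% methylated reads) by listed neighbouring cytosine in the 3 gene windows and over all autosomes (bars from 0, exact 95% intervals), with the mitochondrial CpH level dashed. Classes followed by a listed cytosine lie near the dashed line, and the C.C class of CHH (the third base listed) is the highest in every gene, between 1.58% and 1.80%.

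Single methylated CpH cytosines were called by a one-sided exact binomial test against the mitochondrial rate, with Benjamini-Hochberg adjustment over all autosomal sites of a context at 0.01. The test called 1.46% of autosomal CHG sites and 2.75% of CHH sites. Csmd1 had 133 of 14006 CHG sites called, or 0.9496% (0.796% to 1.12%), against 1.39% in its flanks (1.22% to 1.58%). Csmd3 had 136 of 12210, or 1.11% (0.935% to 1.32%), against 0.778% in its flanks (0.652% to 0.921%). Lrp1b had 257 of 20547, or 1.251% (1.10% to 1.41%), against 1.18%. For CHH the shares were 1.91% in Csmd1 (85 sites), against 3.09% in its flanks, 2.12% in Csmd3 (141 sites), against 1.41%, and 1.98% in Lrp1b (215 sites), against 2.09%. All 6 shares of the genes were under the autosomal share. Called sites were mostly lowly methylated, with median levels of 15.4% to 16.7% for CHG and 12.5% to 12.9% for CHH, near the lowest levels that the test can call.

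A few cytosines were methylated in most reads. The strongest was a C.C site in Csmd3 (position 48124281, chromosome 15), where 25 of 33 reads were methylated, or 75.8% (57.7% to 88.9%; exact binomial test, adjusted p = 4.37e-50). It lies in the step named above for its CHG and CHH levels, as does a CHG site at 48129251, methylated in 16 of 31 reads (51.6%; exact binomial test, adjusted p = 7.95e-27). The third named site of Csmd3, at 48626545, is the CHH site near the gene's start, with 17 of 31 reads (54.8%; exact binomial test, adjusted p = 3.12e-30).

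In Lrp1b the 3 sites with the lowest p were a CHH site at position 41947311 of chromosome 2 with 15 of 32 reads (46.9%), a CHG site at 42078235 with 12 of 21 (57.1%) and a CHH site at 42002930 with 14 of 41 (34.1%). The first of these lies in the step that was highest for CHG and CHH. In Csmd1 they were less methylated: a CHH site at position 16933012 of chromosome 8 with 13 of 47 reads (27.7%), a CHG site at 17020232 with 10 of 25 (40%) and a CHH site at 16259194 with 10 of 32 (31.2%). No CHG site of the 9 was directly before a listed CpG, but only 2.03% to 2.52% of all CHG sites in the windows are. Of the 6 CHH sites, 5 were of the C.C class, which holds 14.3% to 17.8% of all CHH sites in the windows. Whether a sequence difference from the reference creates a CpG at such a site was not tested.

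Replicate 1 was too shallow to repeat these comparisons. It listed 4 CpG, 19 CHG and 35 CHH sites in the Csmd1 window, 1, 17 and 49 in Csmd3, and 5, 16 and 122 in Lrp1b. With 1 usable library, differences between loci have no replicate check.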

How the data were processed

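Whole-genome bisulfite libraries of 2 dentate gyrus samples were available. Per the labels' protocols, 3 µg of DNA with 0.5% unmethylated lambda DNA was sheared to about 300 bp, ligated, converted and amplified. Per the submitters' processing notes, Bismark 0.7.5 and mm9 were used. The sources used here do not name trimming or duplicate removal. The authors deposited, per library and context, counts of methylated, unmethylated and all reads per cytosine of 1 strand class, and the percent methylated. The deposited counts summed in every row and gave back the percent to within 1e-06. The lowest depth was 20 reads, or 30 for CHH in replicate 2. The number of listed sites was 2881459 CpG, 18322704 CHG and 6231179 CHH in replicate 2, and 7959, 39325 and 124736 in replicate 1.

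Levels are methylated over all reads with exact Clopper-Pearson 95% intervals. Flanks are 1 Mb on each side. Bins of 1 Mb needed 100 CpG, 1000 CHG or 300 CHH sites, and steps of 100 kb needed 20, 100 or 50. Fisher's exact test and a quasi-binomial F test over steps were adjusted (Benjamini-Hochberg) over all bins and windows within a context, at 0.05. Named were the 3 genes, the highest and lowest step of each, the 3 called CpH sites of lowest p, and low CpG bins. Members, windows and named rules were chosen with earlier results of these data known. The tests were checked on simulated data. Analyses used Python 3.11.15, NumPy 2.4.6, SciPy 1.17.1 and pandas 2.3.3. RefSeq tables (GRCm38.p6) gave the hairpin and gene names only. A planned match of promoter sequences was not run, because the table used has none for the 3 genes. mm9 gene annotation was not used here, so exons and introns are not given. The minus-strand orientation is general knowledge, not taken from the files.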

Additional observations from a re-analysis of the deposited data

Results flagged for a closer look

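CpH reads of replicate 1 inside the windows, which no comparison used, were above the mitochondrial CpH level of that library (0.418%) in 4 cases by their exact 95% intervals. The CHH level was 1.09% in Csmd1 (0.470% to 2.13%, 35 sites), 1.12% in Csmd3 (0.580% to 1.95%, 49 sites) and 2.77% in Lrp1b (2.24% to 3.38%, 122 sites), and the CHG level was 1.42% in Lrp1b (0.464% to 3.29%, 16 sites). In Lrp1b, all 94 methylated CHH reads came from 1 cluster of 61 sites at 41751690 to 41757772 of chromosome 2, where 38 sites had a methylated read and the level was 4.52% (3.67% to 5.50%). At 60 of those positions replicate 2 had 1.15%. The other 61 CHH sites of Lrp1b in replicate 1 had no methylated read. In Csmd1 and Csmd3 the methylated CHH reads came from 3 and 6 sites.

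Sites of more than 100 reads, left out of the levels, occurred in 1 of the 3 windows. In Lrp1b their CHH level was 0.913% (0.680% to 1.20%, 49 sites), above the mitochondrial 0.368% of replicate 2. They formed 2 groups: 31 sites at 41751700 to 41751762 with 1.34% (0.981% to 1.79%), inside the cluster of replicate 1, and 18 sites at 41073245 to 41073315 with 0.268% (0.0986% to 0.583%). The cause of the depth and of the levels in that cluster was not tested.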

How the results depend on the processing

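Full steps, steps without named sites, the trimmed end part of Csmd3 and a minimum number of sites per alternative were chosen after seeing the data. That minimum left no flank comparison at 40 reads, and levels there only for CHH of Csmd3 and Lrp1b. The CHG and CHH differences of Csmd1 and Csmd3 kept direction and side of the threshold in all alternatives run but one, Csmd1 CHH against its left flank alone (-0.0797 points, Fisher's exact test, adjusted p = 0.0785). As said above, some of these alternatives could not change the difference: the quasi-binomial test, bins as long as the gene, and 30 reads for CHH. For Csmd3, lifting the highest depth could not either. The quasi-binomial test took away the CpG calls of Csmd1 (-3.22, adjusted p = 0.417) and Csmd3 (-0.980, adjusted p = 0.806). For Csmd3 CpG the mean of site levels (-1.34) and the trimmed window (-0.244) also did, and 30 reads reversed it (2.45). Lrp1b depended on the flank taken. With 500 kb flanks it was -0.0248 (CHG) and -0.0963 (CHH) points, with 2 Mb flanks -0.0722 (CHH) and 1.58 (CpG), against the left flank 0.0911 (CHG), 0.0647 (CHH) and -2.05 (CpG), against the right -0.0215, -0.0945 and 0.856, and at 30 reads -0.0344 (CHG) and 1.68 (CpG). At 30 reads CpG levels of Csmd1, Csmd3 and Lrp1b were 73.7%, 83.4% and 81.5%, and CHG levels of Csmd1 and Csmd3 0.660% and 0.790%. At 40 reads CHH was 0.666% in Csmd3 and 0.864% in Lrp1b. Levels came from replicate 2 alone, so leaving out replicate 1 could not change them, and leaving out replicate 2 gave the level of replicate 1. For Csmd1, Csmd3 and Lrp1b, CpG in replicates 2 and 1 was 76.6% and 89.2%, 81.4% and 100%, and 82.3% and 98.3%. CHG was 0.608% and 0%, 0.693% and 0.25%, and 0.684% and 1.42%. CHH was 0.701% and 1.09%, 0.781% and 1.12%, and 0.716% and 2.77%. These levels rest on 1 to 122 sites in replicate 1. With a background rate of 1%, called sites numbered 60, 57 and 90 (CHG; 0.673% of autosomal sites called) and 25, 55 and 75 (CHH; 1.16%), and at 30 reads 16, 30 and 43 (CHG; 1.93%), by fewer sites tested. The cause of the other changes was not tested. Of percentiles, 7 moved, all at 30 or 40 reads, and 37 did not. No paired analysis was possible because the study had 1 group.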

Other observations

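CHG and CHH levels, read at separate cytosines of the same library, went together along Lrp1b. They did so less firmly along Csmd3, which has 12 full steps and a CHG spread little above that of Csmd1. Csmd1 had too little spread to tell. Over full 100 kb steps, Pearson's r was 0.74 in Lrp1b (20 steps, Spearman's rho 0.63), 0.63 in Csmd3 (12 steps, rho 0.56) and 0.023 in Csmd1 (16 steps, rho 0.094). Without the named sites r was 0.69, 0.56 and 0.0037 in the same order, and rho was 0.69, 0.43 and 0.097. With the shortened last step the r of Csmd1 was 0.22. Over full steps the SD in Csmd1 was 1.43 (CHG) and 1.19 (CHH) times that of counting error. In Csmd3 these were 1.52 and 2.21 times, and in Lrp1b 1.93 and 2.26 times. An r near 0 in Csmd1 therefore cannot show that the contexts vary apart. CpG and CHH levels went in opposite directions along Lrp1b (r -0.52, rho -0.63). In Csmd3 the r of CpG and CHH was -0.85 with the shortened last step and 0.038 without it, so it rests on that step. Steps of a gene share a library and are neighbours, and no test was made.

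In RefSeq's gene order the protein-coding neighbours of Csmd1 are Myom2, which encodes a muscle sarcomere protein, and Mcph1, which acts in chromosome condensation, and C030002A05Rik is annotated within Csmd1. Those of Csmd3 are Kcnv1, a potassium channel subunit, and Trps1, a transcription factor, and those of Lrp1b are Ppp6c, a phosphatase subunit, and Kynu, an enzyme of tryptophan breakdown. How far these neighbours reach into the 1 Mb flanks of mm9 was not analysed here. The lowest CpG step of any flank was beside Csmd1, 58.0% at 14990000 to 15089999 of chromosome 8, and a segment of that flank with 10 CpG sites of more than 100 reads (15519894 to 15519993) had 15.7% CpG methylation.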
